A study of Mus musculus with 8 samples.

Results

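Mitochondrial ribosomal protein genes were taken as every row of the deposited table whose symbol is Mrpl or Mrps followed by a number and at most 1 letter from a to c. The pattern found 77 of 24054 named rows, 48 with large subunit names (Mrpl) and 29 with small subunit names (Mrps). Transcripts were counted in 8 polyA-selected RNA-seq libraries from WEHI-control and WEHI-miR-148a, stable derivatives of the mouse immature B cell lymphoma line WEHI-231. Cells were left without stimulation or exposed over 14 h to 2 ug/ml anti-IgM, an antibody that crosslinks the B cell receptor, which gave 4 groups of 2 libraries. The lines are called the control line and the miR-148a line below. Sample descriptions carry 1 code prefix for replicate 1 of every group and another for replicate 2, and the labels do not say what the codes stand for. All 4 groups come from 1 tumour line, so no group stands for a normal B cell. The labels do not say whether either line is a clone or a pool, how the microRNA was expressed, or whether replicates were separate cultures. The p-values therefore rest on library-to-library spread alone, part of which can be technical.

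Mitochondrial ribosomes translate the few membrane proteins of the respiratory chain that mitochondrial DNA encodes. Their protein components are all encoded in the nucleus, made in the cytosol and imported, and they assemble with RNAs made inside the organelle into a small subunit, which reads the message, and a large subunit, which joins the amino acids. Some of these proteins have a bacterial homolog, and others were acquired by mitochondria. Myc, a transcription factor of growing cells, is known to raise the expression of genes of mitochondrial biogenesis. MiR-148a is a microRNA studied in B cell tolerance and lymphoma.

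The miR-148a line is named for a microRNA whose seed, bases 2 to 8, can pair with sites in 3′ UTRs, so its mature sequence is shown with its 2 best matches among the mitochondrial ribosomal protein genes. RefSeq places it on the minus strand at chr6:51269829-51269850 (GRCm38.p6), and capitals mark the seed. The row for its precursor held 1 count in 1 of the 8 libraries, and mature microRNAs are not captured by polyA selection, so the labels of the lines were not checked with it. Under each gene name stand at most 30 bases of the 3′ UTR (GENCODE M21, GRCm38) with the match to the seed and the following A in capitals. The match in Mrps9 lies at chr1:42905561-42905568 on the plus strand, starting at base 65 of a UTR of 186 bases. The match in Mrpl19 lies at chr6:81958479-81958486 on the minus strand, starting at base 3455 of a UTR of 4090 bases.
mmu-miR-148a-3p: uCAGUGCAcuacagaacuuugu
Mrps9: gagcacagtcaTGCACTGAccaatggagg
Mrpl19: tggcactctctTGCACTGAtttcacacag

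A match to TGCACTG, with or without the following A, was present in the longest annotated 3′ UTR of 5 of the 77 genes (6.49%), against 1605 of 10460 tested genes with an annotated UTR (15.3%). The UTRs of the ribosomal protein genes were shorter, with a median of 387 bases against 1169.5 over the tested genes. Besides Mrps9 and Mrpl19, the genes with a match were Mrpl11, Mrpl47 and Mrps25. A match is a description of these letters and not a measured target site.

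Promoters are shown for the 3 genes with the largest falls after anti-IgM across the lines and for Mrpl52, the gene that rose, because these members moved in opposite directions. The RefSeq promoter table (GRCm38.p6; 250 bases before to 50 after the transcription start, 300 in all) held 74 promoters for 68 of the 77 genes. Capitals mark matches on either strand to GCGCATGCG (nuclear respiratory factor 1, NRF1), CCGGAAG (the ETS family, which includes GABP), AAGATGGCG (YY1) and CACGTG (the E box, bound by Myc and others). No 2 marked matches overlap in these 4 promoters. The Mrpl17 promoter (chr7:105811038-105811337, minus strand) held an ETS and an NRF1 match. Mrpl36 (chr13:73330759-73331058, plus strand) had an E box and a YY1 match. In Mrps18b (chr17:35916391-35916690, minus strand), an NRF1 and an ETS match were found, and Mrpl52 (chr14:54426659-54426958, plus strand) had a pair of ETS matches.
Mrpl17: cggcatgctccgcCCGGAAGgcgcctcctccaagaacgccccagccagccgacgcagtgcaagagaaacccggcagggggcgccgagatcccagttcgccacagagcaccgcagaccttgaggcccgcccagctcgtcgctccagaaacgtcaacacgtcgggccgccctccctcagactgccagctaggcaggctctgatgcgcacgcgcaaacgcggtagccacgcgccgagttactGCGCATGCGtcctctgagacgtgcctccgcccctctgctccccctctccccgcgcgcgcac
Mrpl36: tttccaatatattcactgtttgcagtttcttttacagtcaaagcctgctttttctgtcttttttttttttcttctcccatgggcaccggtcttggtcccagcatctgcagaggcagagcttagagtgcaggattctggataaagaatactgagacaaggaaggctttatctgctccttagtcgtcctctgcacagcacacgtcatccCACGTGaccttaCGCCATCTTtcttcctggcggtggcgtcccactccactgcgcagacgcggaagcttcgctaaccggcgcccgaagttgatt
Mrps18b: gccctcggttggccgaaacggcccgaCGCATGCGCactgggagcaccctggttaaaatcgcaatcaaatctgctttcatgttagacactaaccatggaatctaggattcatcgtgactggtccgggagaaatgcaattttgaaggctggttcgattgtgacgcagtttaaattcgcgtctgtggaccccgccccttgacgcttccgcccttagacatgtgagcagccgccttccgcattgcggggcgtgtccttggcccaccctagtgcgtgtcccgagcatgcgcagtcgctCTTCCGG
Mrpl52: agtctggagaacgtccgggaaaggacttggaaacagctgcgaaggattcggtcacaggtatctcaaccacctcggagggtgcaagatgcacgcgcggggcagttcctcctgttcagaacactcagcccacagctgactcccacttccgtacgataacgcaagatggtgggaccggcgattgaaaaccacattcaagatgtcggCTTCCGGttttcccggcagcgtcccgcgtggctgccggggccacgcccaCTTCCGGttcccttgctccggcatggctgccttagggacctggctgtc

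Over all 74 promoters of these genes, the NRF1 letters stood in 9.46%, against 3.99% of the 10882 promoters of tested genes and 1.75% of all 32851 promoters of that length. The ETS letters stood in 33.8% (18.6% and 8.86%) and the YY1 letters in 10.8% (3.20% and 1.40%), each on either strand. E boxes stood in 9.46%, against 10.2% and 7.15%. The promoters listed for Mrpl2 overlap and hold the same E box, so the 7 promoters with an E box belong to 5 of the 68 genes. The median GC content of these promoters was 58.5%, near the 61.0% of tested genes and above the 52.7% of all promoters. The responses to anti-IgM of genes with and without a motif are given as values, with no test. For the ETS letters, the median log2 fold change was -0.16 in the control line and -0.18 in the miR-148a line over 25 genes with the motif, and -0.22 in both over the 43 without it. For the NRF1 letters it was -0.27 and -0.24 over 7 genes with the motif, and -0.18 and -0.20 over the 61 without it. For the YY1 letters it was -0.19 and -0.21 over 8 genes, and -0.20 and -0.21 over the 60 without them. For the E box it was -0.25 and -0.34 over 5 genes, of which 1 and 3 were called lower, and -0.19 and -0.20 over the 63 without it, of which 4 and 13 were called lower.

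Library totals ran from 5810227 to 18660373 counts, and the lowest count of any mitochondrial ribosomal protein gene in any library was 70, so all 77 genes passed the filter on low counts. The 9 B cell markers measured summed to between 2651 and 3768 CPM (library-scaled counts, with TMM factors), and the share they took was above that of every other marker list. Of the 7 myeloid markers, Lyz2, S100a8 and S100a9 were at 0 in all libraries, and the sum was 0.922 to 1.99 CPM without and 4.35 to 11.3 CPM with anti-IgM. Only 2 of these markers passed the filter on low counts. In each line 1 of them was called higher (log2 fold change 3.50 in the control and 4.17 in the miR-148a line). The other, at -0.19 and 0.53, was not called. The part of myeloid cells in the results was not tested. T cell markers summed to 40.7 to 52.9 CPM without and 60.0 to 71.1 CPM with anti-IgM, nearly all of it Cd8b1 (40.2 to 70.4 CPM). Cd3e, Cd3d, Cd3g, Cd4 and Cd8a stood at 0.348 CPM or less in every library. Fibroblast markers summed to at most 0.615 CPM and erythroid markers to at most 2.12 CPM.

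The 77 genes together took 4140 and 4102 CPM in replicates 1 and 2 of the unstimulated control line and 3621 and 3591 CPM after anti-IgM. In the miR-148a line the sums were 3943 and 3820 CPM without and 3511 and 3137 CPM with anti-IgM. All 4 stimulated libraries thus lay below all 4 unstimulated ones, and the lowest was replicate 2 of the stimulated miR-148a line. In that library 72 of the 77 genes lay below their own mean over the 8 libraries, against 53 in its partner, 48 and 49 in the stimulated control line, 25 and 31 in the unstimulated miR-148a line and 10 and 10 in the unstimulated control line. The same count was not made over all tested genes, so these counts do not show what is particular to the 77. CPM is a share of the polyA RNA of a library. Fewer transcripts per cell, fewer expressing cells and a rise of other transcripts therefore cannot be told apart.

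**Figure D1:**
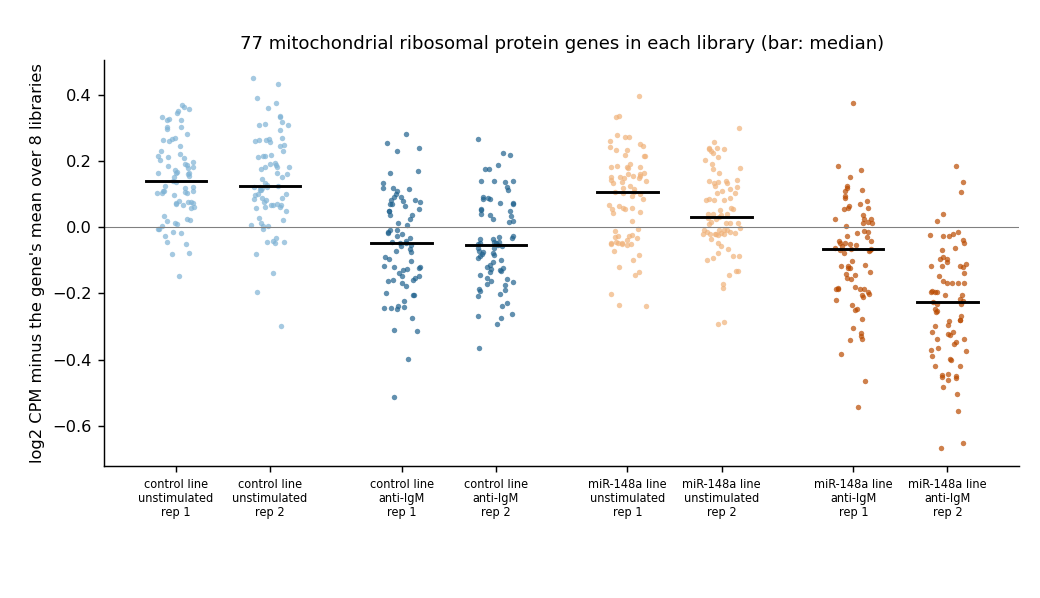
Each point is 1 of 77 mitochondrial ribosomal protein genes in 1 library, as log2 CPM minus that gene's mean over the 8 libraries, and bars are medians. Medians of the 4 unstimulated libraries lie between 0.03 and 0.14, those of the stimulated libraries between -0.23 and -0.05, with replicate 2 of the stimulated miR-148a line lowest.

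Per kilobase of principal transcript, the mean level over all libraries was highest for Mrps21, a small subunit protein with a bacterial homolog, at 122 CPM per kb, Mrpl13 at 109 and Mrpl52 at 104 CPM per kb. Mrps17 (6.95 CPM per kb) and Mrpl19 (6.97 CPM per kb) were lowest, and their annotated transcripts are 5061 and 5000 bases long, of which 4401 and 4090 bases are 3′ UTR. Without length correction, Mrpl13, Mrpl18 and Mrpl12 had the highest mean log2 CPM (7.05, 6.89 and 6.79). Mrpl27, Mrps6 and Mrpl55 had the lowest on that scale (4.25, 4.10 and 3.82). Exons of 32 of the 77 genes overlap another gene in the annotation, on the opposite strand for 27 and on the same strand for 8, and the strand setting of the counting is not given in the sources used here. Mrpl36 overlaps Ndufs6, Mrps18b overlaps Gm16279, Mrpl12 overlaps Gm16755, Mrpl19 overlaps Gcfc2, and Mrps27 and Mrps30 each overlap another gene, all on opposite strands. Mrpl3 overlaps Gm38077 on the same and Gm47106 on the opposite strand. Mrps6 shares exon sequence with Slc5a3 on the same strand. Their values may include reads of the partner.

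In the control line, anti-IgM was followed by lower levels of 5 mitochondrial ribosomal protein genes and higher levels of none (edgeR quasi-likelihood test, adjusted p under 0.05). The 5 were Mrpl17, Mrpl36, Mrpl3, Mrps30 and Mrps27, with log2 fold changes from -0.51 to -0.43. This is 6.49% of the 77 genes, beside 7.45% of all 11291 tested genes called lower and 9.6% called higher. The number of calls was thus near the background in this fit, which does not pair the libraries. With the replicate number as a block it was not, with 36.4% of the 77 genes called lower beside 17.2% of all tested genes. Without the block, the sign of the estimates differed more from the rest than the calls did. Of the 77 estimates, 68 were negative (88.3%, against 48.5% of all tested genes), and the median log2 fold change was -0.20 against 0.01. Between libraries of the same replicate number the median was -0.20 in replicate 1 and -0.24 in replicate 2. At an unadjusted p under 0.05, 22 genes were lower and 1 was higher, beside 14.9% and 17.4% of all tested genes. DESeq2 called 5 lower (6.49%, beside 8.04% of all genes it tested) and none higher.

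Mrpl17 (chr7:105803206-105811099, minus strand, GRCm38; 3 exons), a large subunit protein with a bacterial homolog, stood at 77.9 and 83.4 CPM in the unstimulated control libraries and at 53.9 and 58.8 CPM after anti-IgM. The groups did not overlap, and the fall was -0.51 ± 0.10 (log2 fold change ± SE; adjusted p = 0.00981). Mrpl36 (chr13:73328513-73332178, plus strand; 2 exons), a small zinc-binding protein of the large subunit, went from 40.7 and 37.5 CPM to 25.4 and 29.6 CPM, a fall of -0.50 ± 0.11 (adjusted p = 0.0193). Mrpl3 (chr9:105053239-105079888, plus strand; 10 exons), a core large subunit protein mutated in human cardiomyopathy, went from 104 and 102 CPM to 71.5 and 77.6 CPM (-0.47 ± 0.12, adjusted p = 0.0311). In all 3 genes both stimulated libraries lay below both unstimulated ones. Here and for the called genes below, the genes were picked by their calls in the same libraries, so such separation is no further support.

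Mrps30 (chr13:118378381-118387252, minus strand; 5 exons), which carries a small subunit name but sits in the large subunit, went from 52.5 and 50.2 CPM to 38.5 and 36.8 CPM (-0.45 ± 0.11, adjusted p = 0.0286). Mrps27 (chr13:99344786-99415562, plus strand; 11 exons), a pentatricopeptide repeat protein of the small subunit, went from 41.6 and 44.4 CPM to 30.6 and 33.0 CPM (-0.43 ± 0.10, adjusted p = 0.0256). Neither gene had overlapping groups. Mrpl55 had the most negative estimate of all 77 genes in this line (-0.52 ± 0.16), yet at a low level and with 14.6 and 18.9 CPM in the unstimulated replicates it did not pass (adjusted p = 0.0537). These calls rest on few libraries. Leaving out an unstimulated control library reduced the number called lower to 2 (replicate 1) or 0 (replicate 2), and leaving out replicate 1 of the stimulated control line reduced it to 0. It was 3 without either unstimulated and 8 without either stimulated library of the miR-148a line, which enter through the shared spread. Beside the counts of 2, 0 and 0 stood 3.08%, 1.57% and 1.498% of all genes called lower, beside the count of 3 stood 4.90% and 4.999%, and beside the count of 8 stood 8.29% and 8.41%. With the replicate number as a block, 28 of the 77 genes were called lower and 1 higher (Mrpl52), beside 17.2% and 17.6% of all tested genes.

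In the miR-148a line, 19 genes fell after anti-IgM and Mrpl52 rose, which is 24.7% and 1.30% of the 77 genes. Beside this stand 14% of all tested genes called lower and 14.7% called higher. Estimates were negative for 67 genes (87.0%, against 49.9% of all tested genes), with a median of -0.21 against 0.00. The median was -0.16 in replicate 1 and -0.26 in replicate 2. With the replicate number as a block, 31 genes were called lower and 2 higher, Mrpl52 and Mrps18c, beside 23.3% and 22.8% of all tested genes. DESeq2 called 12 lower (15.6%, beside 12.3% of all genes it tested) and 0 higher.

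The largest falls were those of Mrps18b and Mrpl36. Mrps18b (chr17:35910379-35916389, minus strand; 7 exons), 1 of 3 vertebrate paralogs of the bacterial S18 protein, stood at 67.7 and 67.4 CPM in the unstimulated miR-148a line and at 45.1 and 35.9 CPM after anti-IgM (-0.75 ± 0.13, adjusted p = 0.00348). In the control line it went from 73.2 and 72.0 CPM to 49.7 and 58.5 CPM (-0.42 ± 0.13, adjusted p = 0.0546; 0.00862 with the block). Mrpl36 went from 39.9 and 38.9 CPM to 24.2 and 22.9 CPM in the miR-148a line (-0.75 ± 0.12, adjusted p = 0.00206). For both genes all 4 stimulated libraries lay below all 4 unstimulated ones.

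Mrpl17 stood at 67.9 and 69.0 CPM without and at 44.1 and 44.8 CPM with anti-IgM in the miR-148a line (-0.62 ± 0.10, adjusted p = 0.00238). Mrpl19 (chr6:81957851-81965958, minus strand; 5 exons), a large subunit protein at the interface of the subunits, went from 38.0 and 40.9 CPM to 23.4 and 27.4 CPM (-0.63 ± 0.14, adjusted p = 0.0112). Mrpl16 (chr19:11770391-11774960, plus strand; 4 exons), which joins the large subunit late in its assembly in bacteria, went from 27.05 and 28.5 CPM to 20.9 and 16.3 CPM (-0.60 ± 0.13, adjusted p = 0.0104). Stimulated and unstimulated libraries of either line did not overlap for any of these 3 genes.

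Mrpl12 (chr11:120484613-120489065, plus strand; 5 exons) forms the flexible stalk that recruits translation factors. It went from 126 CPM in both replicates to 87.8 and 80.7 CPM in the miR-148a line (-0.58 ± 0.13, adjusted p = 0.00982) and from 125 and 143.2 CPM to 93.4 and 116 CPM in the control line (-0.35 ± 0.13, adjusted p = 0.0938; 0.0117 with the block). The other stalk proteins did not pass in either line. Mrpl10, the anchor of the stalk, had -0.27 ± 0.13 in the control and -0.23 ± 0.13 in the miR-148a line, Mrpl11, its base, 0.06 ± 0.11 and -0.14 ± 0.12, and Mrpl1, on the opposite side, -0.11 ± 0.18 and -0.12 ± 0.18.

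The remaining genes that fell in the miR-148a line were Mrpl15, Mrpl50, Mrpl20, Mrps27, Mrpl3, Mrps30, Mrpl44, Mrps26, Mrpl38, Mrpl22, Mrps17, Mrpl37 and Mrpl34, with log2 fold changes from -0.50 (Mrpl15, adjusted p = 0.0049) to -0.32 (Mrpl34, adjusted p = 0.0387). Mrpl44, a disease gene with a fold like that of ribonuclease III, went from 87.5 and 80.0 CPM to 68.1 and 56.5 CPM (-0.43 ± 0.13, adjusted p = 0.0332) and had nearly the same estimate in the control line (-0.42 ± 0.13, adjusted p = 0.0551; 0.00172 with the block). Mrps6 had an estimate of -0.61 ± 0.20 but libraries of 16.4 and 10.7 CPM after anti-IgM, and did not pass (adjusted p = 0.0507). The count depended on replicate 2 of the stimulated miR-148a line, the library with the lowest sum: without it 5 genes were called lower and none higher, and the median was -0.15. Those 5 are 6.49% of the 77, beside 6.32% of all genes tested in that fit, so no excess over the background was left. Without replicate 1 of that group, 21 were called lower (27.3%, beside 14.4% of all) and none higher, and the median was -0.31. Without either unstimulated library of the miR-148a line, 7 were called lower (9.09%) and none higher, beside 5.97% of all genes without replicate 1 and 8.34% without replicate 2. Mrpl15, Mrpl17, Mrpl36 and Mrps18b were called lower under all 14 alternative settings tried, Mrpl19 under all but 1 (without replicate 2 of the unstimulated miR-148a line). Mrpl37, Mrpl34 and Mrps17 lost the call under 12, 11 and 10 of the 14.

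**Figure D2:**
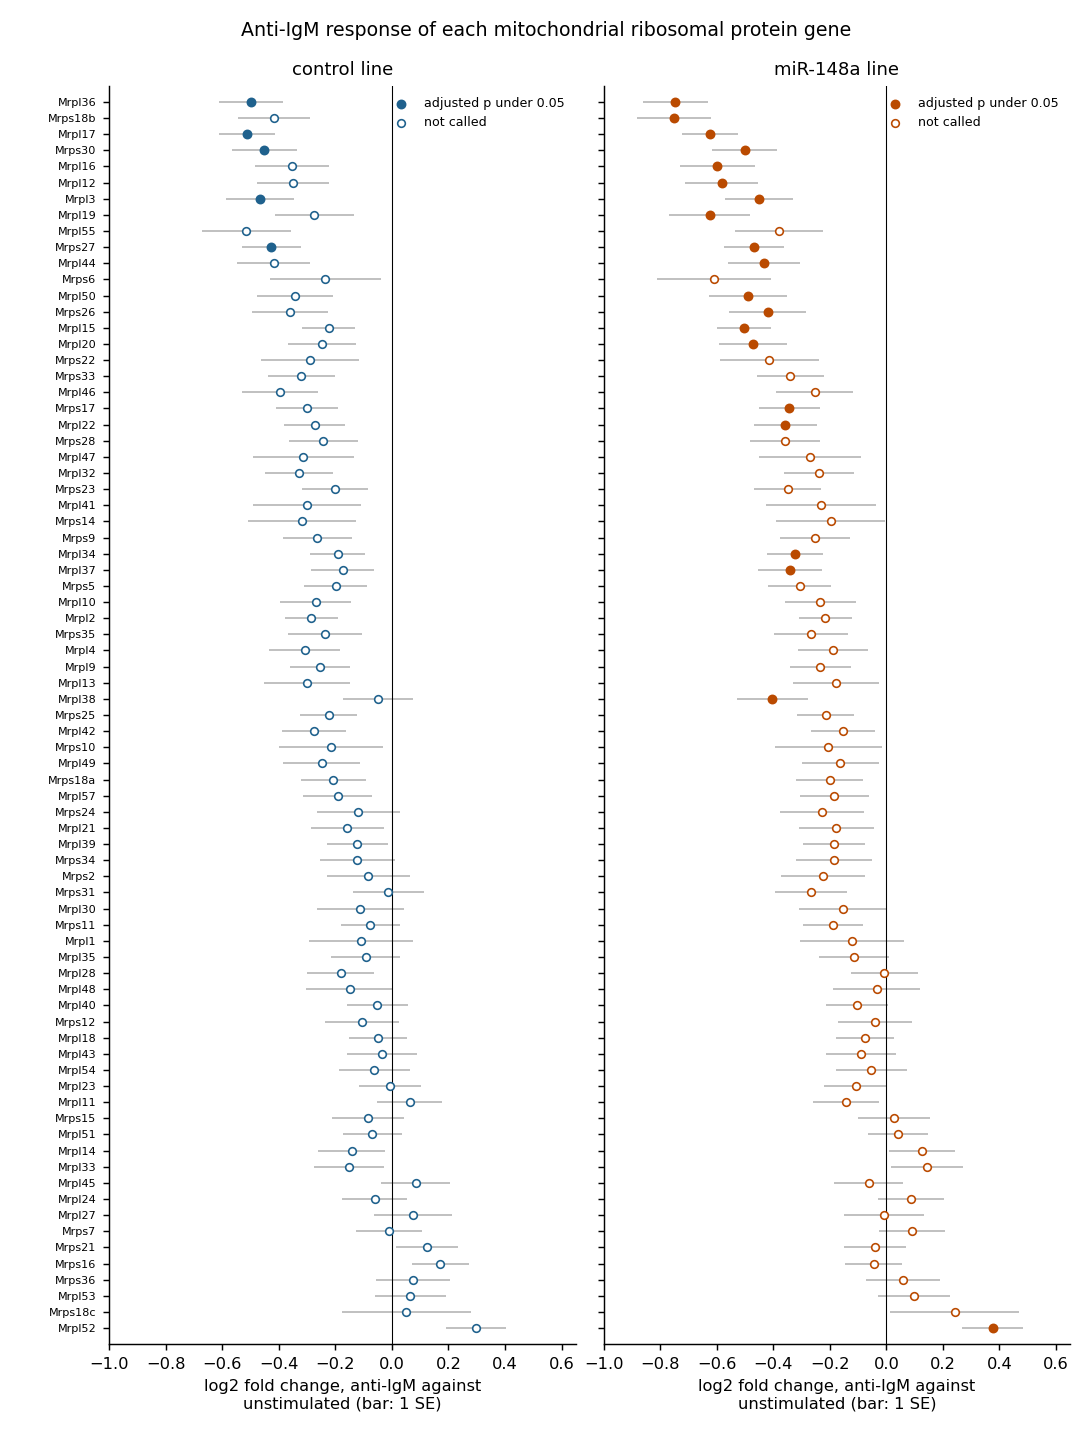
Log2 fold change of each of the 77 genes after anti-IgM, with its standard error, in the control line (left) and in the miR-148a line (right), sorted by the mean of the estimates; filled points have an adjusted p under 0.05. Most points lie left of 0 (68 and 67 of 77), and filled points number 5 on the left side and 20 on the right side, with Mrpl52 alone called higher.

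Mrpl52, a large subunit protein without a bacterial homolog (chr14:54426909-54429756, plus strand; 5 exons), went against the rest. Its levels were 38.9 and 43.2 CPM in the unstimulated and 50.6 and 50.2 CPM in the stimulated control line (0.30 ± 0.11, adjusted p = 0.0879; 0.0254 with the block). The miR-148a line had 36.5 and 35.1 CPM without and 49.0 and 44.3 CPM with anti-IgM (0.38 ± 0.11, adjusted p = 0.0291). All 4 stimulated libraries lay above all 4 unstimulated ones, the only such case among the 77 genes, beside 17.2% of all tested genes. The call in the miR-148a line was lost when any of the 4 libraries of that line was left out and with DESeq2. Mrpl52 levels also had the lowest correlation with the mean of the other 76 genes over the 8 libraries (Pearson's r = -0.55), followed by Mrpl53 (-0.49), Mrpl14 (-0.31) and Mrps36 (-0.28), against a median of 0.76.

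Genes on the positive side in the control line, besides Mrpl52, were Mrps16 (0.17 ± 0.10), Mrps21 (0.12 ± 0.11), Mrpl45 (0.08 ± 0.12), Mrps36, Mrpl27, Mrpl53, Mrpl11 and Mrps18c, with adjusted p from 0.272 upward. Those of the miR-148a line were Mrps18c (0.24 ± 0.23), Mrpl33 (0.14 ± 0.13), Mrpl14 (0.13 ± 0.12), Mrpl53, Mrps7, Mrpl24, Mrps36, Mrpl51 and Mrps15, with adjusted p from 0.436 upward. Mrps36 is now known as a subunit that links the ketoglutarate dehydrogenase complex, not as a ribosomal protein, and it stood near 0 in both lines (0.07 ± 0.13 and 0.06 ± 0.13). The estimates closest to 0 were those of Mrpl23 (-0.01 ± 0.11), Mrps7 (-0.01 ± 0.12) and Mrps31 (-0.01 ± 0.13) in the control line, and of Mrpl28 (-0.01 ± 0.12), Mrpl27 (-0.01 ± 0.14) and Mrps15 (0.03 ± 0.13) in the miR-148a line.

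The calls by place in the ribosome stand beside 7.45% of all tested genes called lower in the control line and 14% in the miR-148a line. The 10 small subunit proteins without a bacterial homolog had negative estimates throughout in both lines. Their medians were -0.26 and -0.34, and 1 and 3 genes were called lower (10% and 30%). Mrps22 and Mrps34, both mutated in human mitochondrial disease, had -0.29 ± 0.17 and -0.12 ± 0.13 in the control line and -0.41 ± 0.18 and -0.19 ± 0.14 in the miR-148a line, none of which passed. Mrps18b was counted in this group, although it is related to bacterial S18. The 16 small subunit proteins with a bacterial homolog had medians of -0.11 and -0.20, with 0 and 1 called lower (0% and 6.25%). Among them Mrps12, a protein of the decoding centre, had -0.11 ± 0.13 and -0.04 ± 0.13, and Mrps2 had -0.08 ± 0.15 and -0.22 ± 0.15. The 30 large subunit proteins with a bacterial homolog had medians of -0.25 and -0.23, and 3 and 10 of them were called lower (10% and 33.3%).

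The 20 large subunit proteins counted as without a bacterial homolog, which include Mrps30, had medians of -0.16 and -0.17. Mrps18a was counted in this group, although it is related to bacterial S18. In the group 1 and 5 genes were called lower (5% and 25%), and Mrpl52 was called higher in the miR-148a line. At the tunnel exit, where the new chain leaves the ribosome, Mrpl22 fell in the miR-148a line (-0.36 ± 0.11, adjusted p = 0.039) but not past the threshold in the control line (-0.27 ± 0.11, adjusted p = 0.119). Mrpl23, Mrpl24 and Mrpl45, which surround the same exit, had estimates between -0.11 and 0.09 in the 2 lines. Mrpl41 had -0.30 ± 0.19 and -0.23 ± 0.19, with 15.2 and 24.7 CPM in the stimulated control replicates. The 3 paralogs of the bacterial S18 protein stood apart from each other. Mrps18b was lower as given above, Mrps18a had -0.21 ± 0.11 in the control line and -0.20 ± 0.12 in the miR-148a line, and Mrps18c had 0.05 ± 0.23 and 0.24 ± 0.23, the latter called higher with the block (adjusted p = 0.0234).

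The responses of the lines share no library, and their estimates can be set side by side. They come from 1 fit with a shared spread, and the replicate numbers pair libraries across the lines, so they are not independent. All 5 genes called lower in the control line were called lower in the miR-148a line too, 14 were called lower in the miR-148a line only, and 62 of the 77 were negative in both. These are 6.49%, 18.2% and 80.5% of the 77 genes, beside 6.53%, 7.46% and 40.6% of all tested genes. In 48 genes (62.3%) all 4 differences within a replicate number were negative, against 31.1% of all tested genes. Across the 77 genes the responses correlated with Pearson's r = 0.76 and Spearman's rho = 0.77, beside r = 0.80 across all tested genes. These are correlations across genes, which are not independent replicates. In 26 genes (33.8%) all 4 stimulated libraries lay below all 4 unstimulated ones, beside 17.1% of all tested genes.

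**Figure D3:**
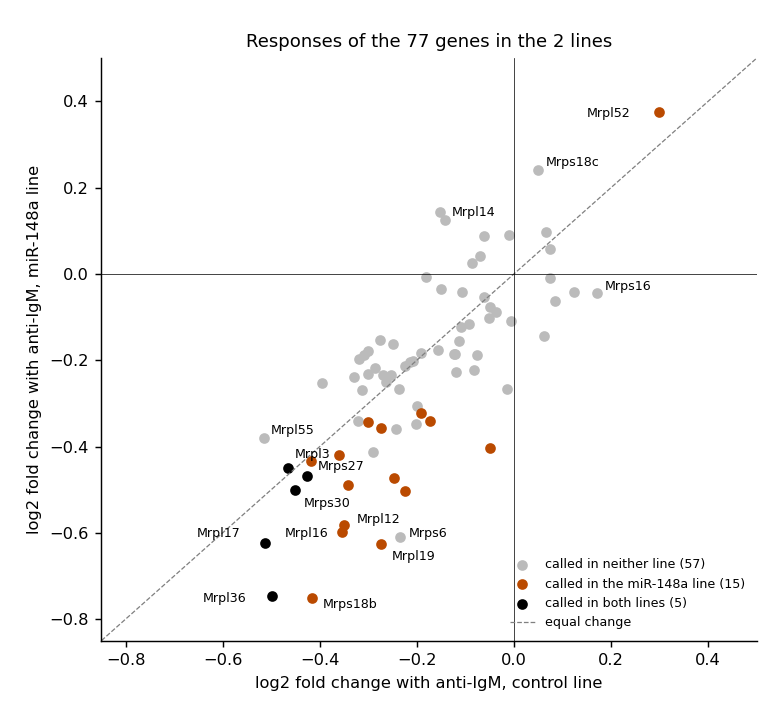
Log2 fold change after anti-IgM in the control line (x) against the miR-148a line (y) for the 77 genes, coloured by calls at an adjusted p under 0.05, with a dashed line of equal change. Points lie mainly in the lower left quadrant (62 of 77), and the 5 genes called in both lines are Mrpl17, Mrpl36, Mrpl3, Mrps30 and Mrps27.

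A larger fall in the miR-148a line was not shown. The interaction, the response of the miR-148a line minus that of the control line, was called for 0 of the 77 genes with edgeR, beside 0% of all tested genes (0.0974% with the block, none of them among the 77). No gene of the 77 had an unadjusted p under 0.05 for it, and DESeq2 called none of them. The median difference was -0.03, and 45 of 77 estimates were negative (58.4%, beside 53.8% of all tested genes). Leaving out replicate 2 of the stimulated miR-148a line turned the median to 0.05, and leaving out replicate 1 gave -0.12. The most negative estimates were those of Mrps6 (-0.37 ± 0.28), Mrpl38 (-0.35 ± 0.18), Mrpl19 (-0.35 ± 0.20) and Mrps18b (-0.33 ± 0.18), and the most positive that of Mrpl33 (0.30 ± 0.18).

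Between the lines without stimulation, none of the 77 genes was called with edgeR, beside 0.487% of all tested genes, and DESeq2 called none of them. At an unadjusted p under 0.05, 5 were lower and 0 higher in the miR-148a line, beside 5.01% and 6.38% of all tested genes, so the number lower was near the background. The median log2 difference, miR-148a line minus control line, was -0.08 against 0.01 over all tested genes. Of the 77 estimates, 56 were negative (72.7%, beside 48.7% of all tested genes). With anti-IgM in both lines, edgeR and DESeq2 again called none (beside 2.52% of all tested genes with edgeR), and the median was -0.11 against -0.01. There 58 of the 77 estimates were negative (75.3%, beside 51.5% of all tested genes). At an unadjusted p under 0.05, 13 of the 77 were lower and 0 higher, beside 9.15% and 9.09% of all tested genes. The median was -0.03 in replicate 1 and -0.18 in replicate 2, and -0.02 without replicate 2 of the stimulated miR-148a line. With the replicate number as a block, Mrps9 and Mrpl9 were called lower without stimulation (beside 3.37% of all tested genes), and 10 genes with anti-IgM (beside 8.24%).

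**Figure D4:**
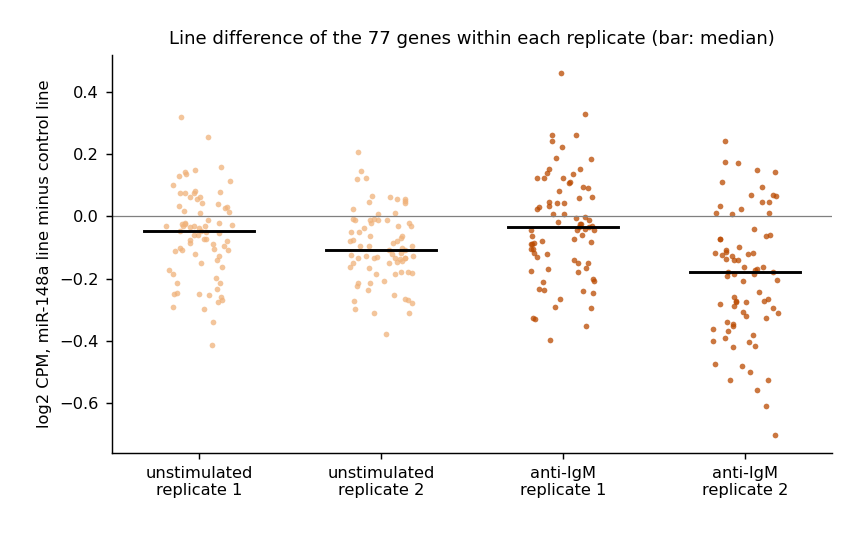
Log2 CPM of the miR-148a line minus the control line for each of the 77 genes within a replicate number, with bars at the medians. Medians lie at -0.05 and -0.11 without stimulation and at -0.03 and -0.18 with anti-IgM, lowest in replicate 2 with anti-IgM.

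Mrps9 (chr1:42851233-42905683, plus strand; 11 exons), a small subunit protein with a bacterial homolog and the seed match printed above, stood at 93.4 and 84.9 CPM in the unstimulated control line and at 70.1 and 69.9 CPM in the unstimulated miR-148a line. These groups did not overlap, but the gene was chosen after its values were seen. The difference did not pass without the block (-0.35 ± 0.12, adjusted p = 0.288; 0.0224 with the block). After anti-IgM the levels were 81.0 and 68.2 CPM in the control line and 63.5 and 54.6 CPM in the miR-148a line (-0.34 ± 0.13, adjusted p = 0.202; 0.0248 with the block). Mrpl19, which has the other match of that kind, had a line difference of -0.05 ± 0.13 without stimulation (adjusted p = 0.945) and of -0.40 ± 0.15 with anti-IgM (adjusted p = 0.196; 0.0212 with the block). The other 3 genes with a match had line differences between -0.15 and 0.08 without and between -0.13 and -0.11 with anti-IgM, none of which passed. Mrpl9, which has no such match, differed about as much as Mrps9, with -0.31 ± 0.10 without stimulation (adjusted p = 0.273; 0.0439 with the block).

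Other parts of the mitochondrial translation system were counted on lists from general knowledge. A list of mitoribosome proteins under other names, with the partner Oxa1l included, had 7 genes. Of these, 1 was called lower in each line (14.3%), Ptcd3 (-0.48 ± 0.14 in the control and -0.60 ± 0.14 in the miR-148a line). The medians were -0.20 and -0.21. Of 22 assembly factors tested, 1 was called lower in the control line (4.55%) and 6 in the miR-148a line (27.3%). In these lines 7.45% and 14% of all tested genes were called lower. Rnmtl1, a methyltransferase of the large subunit RNA, went from 16.3 and 15.9 CPM to 7.24 and 8.12 CPM in the miR-148a line (-1.06 ± 0.19, adjusted p = 0.00388). Noa1, a GTPase of small subunit assembly, fell in both lines (-0.47 ± 0.11 and -0.74 ± 0.11). Fastkd2, an RNA-binding protein of large subunit assembly, fell in the miR-148a line (-0.72 ± 0.17).

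Of 14 translation factors and their partners, 1 was called lower in the control line (7.14%) and 2 in the miR-148a line (14.3%). These shares were near the 7.45% and 14% of all tested genes. The medians were -0.17 and -0.26. Lrpprc, which stabilises mitochondrial mRNAs, went from 119 and 120.1 CPM to 83.5 and 89.0 CPM in the control line (-0.47 ± 0.11, adjusted p = 0.0218) and from 111 and 109 CPM to 74.8 and 62.7 CPM in the miR-148a line (-0.68 ± 0.11, adjusted p = 0.00253). Tsfm, an elongation factor, fell in the miR-148a line (-0.44 ± 0.12). All 11 genes of mitochondrial DNA transcription and replication had negative estimates in the control line and 8 of them in the miR-148a line, with 3 and 5 called lower (27.3% and 45.5%). The largest was Peo1, the mitochondrial DNA helicase (-0.59 ± 0.14 and -1.04 ± 0.15), and Polg, the mitochondrial DNA polymerase, had -0.54 ± 0.12 and -0.58 ± 0.12.

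Of 25 genes of protein import, 5 were called lower in the control line (20%) and 11 in the miR-148a line (44.0%), and none higher. Timm9, a chaperone of the intermembrane space, went from 47.1 and 44.8 CPM to 26.5 and 28.5 CPM in the control line (-0.74 ± 0.11, adjusted p = 0.00396) and from 40.5 and 38.8 CPM to 19.9 and 17.2 CPM in the miR-148a line (-1.11 ± 0.12, adjusted p = 0.000557). Its partner Timm10 fell in the miR-148a line (-1.14 ± 0.24), and Timm8a1 fell in both (-0.68 ± 0.16 and -1.05 ± 0.16). The shares of both lists stand beside the 7.45% and 14% of all tested genes given above. The table has no rows for the mRNAs that mitochondrial DNA encodes, so the products of the mitochondrial ribosome were not analysed here.

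**Figure D5:**
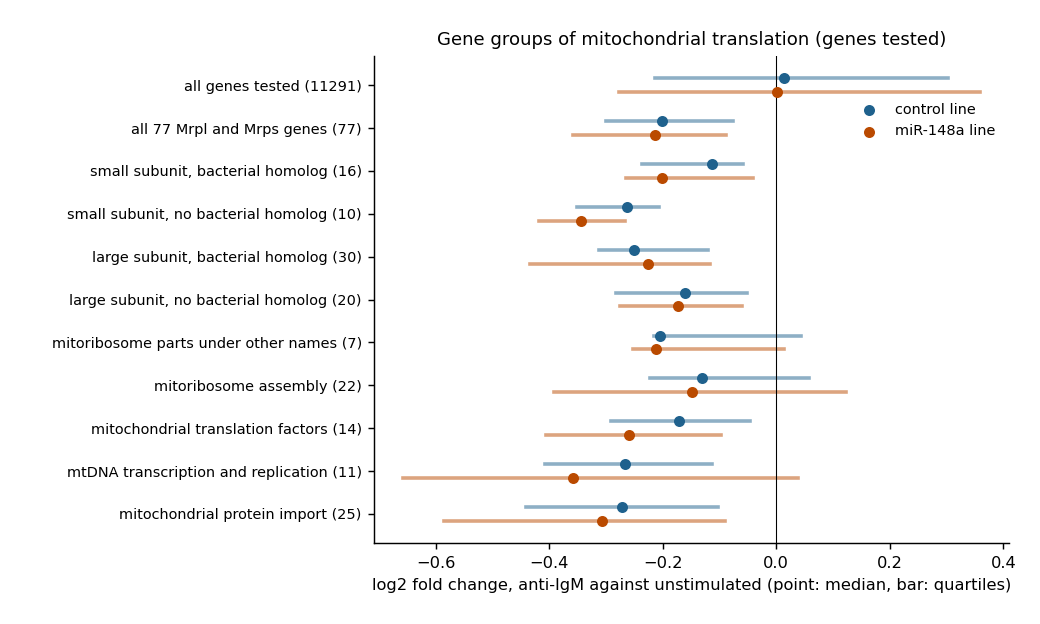
Median (point) and quartiles (bar) of the log2 fold change after anti-IgM in the control line and in the miR-148a line, for all 11291 tested genes, the 77 genes, their subgroups and related mitochondrial lists, with the number tested in parentheses. Medians of all subgroups and lists lie left of 0, from -0.11 to -0.36, while those of all tested genes lie at 0.01 and 0.00.

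Among factors known to drive genes of mitochondrial biogenesis, Myc fell in both lines. Its levels were 257 and 296 CPM without and 55.4 and 137.3 CPM with anti-IgM in the control line (-1.50 ± 0.31, adjusted p = 0.0141), and 335 and 315 CPM without and 78.1 and 75.7 CPM with anti-IgM in the miR-148a line (-2.08 ± 0.32, adjusted p = 0.00208). The stimulated control replicates differed from each other more than the other groups did. Pprc1, a coactivator of the same genes, fell in both lines as well (-0.79 ± 0.23 and -1.34 ± 0.23). Nrf1 (-0.32 ± 0.14 in both lines), Gabpa (-0.19 ± 0.12 and -0.21 ± 0.12) and Yy1 (-0.21 ± 0.11 in the control and -0.23 ± 0.11 in the miR-148a line) did not pass without the block. With it, Nrf1 (adjusted p = 0.0152 and 0.0113) and Yy1 (0.0449 and 0.0245) passed in both lines and Gabpa in the miR-148a line (0.039). Of the 12 regulators tested, 1 was called higher (8.33%) and 3 lower (25%) in the control line. In the miR-148a line 2 were higher (16.7%) and 4 lower (33.3%). Of all tested genes, 9.6% were higher and 7.45% lower in the control line, and 14.7% and 14% in the miR-148a line. Tfeb, a factor of lysosome genes, was called higher in both lines (0.50 ± 0.12 and 0.76 ± 0.12).

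Some of these genes differed between the replicate numbers. Mrps18c was lower in replicate 2 than in replicate 1 in each of the 4 groups, by -0.39 to -0.48 on the log2 scale, which is more than its estimated response in either line. Mrps14 (mean -0.35) and Mrps22 (mean -0.30) were also lower in replicate 2 in all groups. In all, 23 of the 77 genes (29.9%) were lower and 11 (14.3%) higher in replicate 2 in every group, beside 19.3% and 19.5% of all tested genes. The median difference was -0.06 against 0.00. The code in the descriptions goes with the replicate number, so what the code stands for and the replicate cannot be told apart.

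Outside the 77 genes, 8565 tested genes whose mean log2 CPM reached 3 were ranked by the correlation of their log2 CPM with the mean of these genes over the 8 libraries. The 5 highest were Wars, Sec13, Utp14a, Rpap3 and Asns, with Pearson's r from 0.994 to 0.997. Wars and Asns encode a tryptophan tRNA ligase of the cytosol and asparagine synthetase, Sec13 a coat protein of secretory vesicles and Utp14a a factor of cytosolic ribosome assembly. All 5 had negative responses in both lines, from -0.33 (Wars) to -0.80 (Asns) in the control line and from -0.34 (Rpap3) to -1.07 (Asns) in the miR-148a line. The points share their libraries and depth, and the correlation is a description.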

How the data were processed

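PolyA RNA from 8 libraries was sequenced with a directional kit, per the labels' protocols. The deposited table holds estimated counts per gene that the authors made, in which 9.11% to 12.4% of values per library are not whole numbers. The submitters' processing notes name CASAVA 1.8, cutadapt, TopHat2 2.0.13, Bowtie2, Partek 6.15.0730, edgeR and the build mm10 (GRCm38). How strand was treated, and which gene annotation was used, is not given in the sources used here. Of 24081 rows, 27 bear dates in place of symbols (0.213% to 0.235% of counts) and were left out.

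Values were rounded to whole counts, filtered with filterByExpr (11291 genes tested), scaled with TMM factors and tested with edgeR 4.0.16 (R 4.3.3; quasi-likelihood, 1 fit over all 4 groups, 4 residual degrees of freedom, Benjamini-Hochberg adjustment over all tested genes at 0.05). The contrasts were the response to anti-IgM in each line, the line difference without and with anti-IgM, and the interaction. Log2 CPM used a prior count of 2, and a floor of 3 counts is 0.166 to 0.502 CPM. This floor covers counting error only. Alternatives were DESeq2 1.42.0, upper-quartile factors, no filter, only the groups compared, each library left out, and the replicate number as a block. The replicate numbers 1 and 2 follow the sample titles and go with the code prefixes in the descriptions, and deviations from group means correlated at 0.495 to 0.569 within a number over the 6 pairs of groups, so they pair the libraries. On simulated data (11170 genes, response of the control line) 19.7% of genes changed by a log2 of 0.5 were called, 72.7% at 1 and 89.4% at 2. Each size was given to 66 genes, and 10972 genes were left unchanged. In the real response of the control line, 9.6% of tested genes were called higher and 7.45% lower. The adjusted p depends on how many genes change, so the simulated shares do not give the power of the real comparisons. With 2 libraries against 2, an exact permutation test cannot go below 0.333, so none was used.

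The members and lists were chosen with earlier results of these data known. Members named were, per contrast, the 6 largest called falls and rises, all called where there were 8 or fewer, the 3 highest, lowest and least changed, those opposite to the median, and a list by role. Mrps9, Mrpl9, Mrps14, Mrps25, Mrpl47 and the other names outside this rule were chosen after their values were seen.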

Additional observations from a re-analysis of the deposited data

How the results depend on the processing

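In the response of the control line, upper-quartile factors gave 1 gene higher, beside 11.6% of all tested genes. The median was -0.14, with that of all tested genes at 0.08. No filter on low counts gave 11 lower (14.3%, beside 8.05% of all tested genes). The median was -0.26, with that of all tested genes at -0.04. The median of the 77 genes minus that of all tested genes was -0.21 under both settings. In the response of the miR-148a line, DESeq2 gave 0 higher and 12 lower. Pairing the libraries by replicate number as a block gave 1 higher and 28 lower in the control line (3929 of all tested genes called) and 2 higher and 31 lower in the miR-148a line (5205). With the block, 2 genes were lower between lines without stimulation (823 called of all) and 10 with anti-IgM (1822), and 11 genes of all tested had an interaction. For the line difference without stimulation, 55 genes of all were called, 179 without the filter and 150 with DESeq2. With anti-IgM they were 284, 450 without the filter and 16 when only the groups compared entered the fit. DESeq2 called 1 interaction. Leaving out each library in turn gave 0 to 8 lower in the control line (540 to 2082 of all tested genes called) and 5 to 21 lower and 0 to 1 higher in the miR-148a line (1481 to 3155), whose median ran from -0.31 to -0.15. It gave 0 to 76 genes of all for the line difference without and 0 to 222 with anti-IgM, and an interaction median from -0.12 to 0.0504. The reversal to 0.0504 came without replicate 2 of the stimulated miR-148a line, and the cause of these changes was not tested. With 2 libraries a group and 4 residual degrees of freedom, most changes of the size seen here (medians of -0.20 and -0.21) were not called without the block. With the block, 36.4% of the 77 genes were called lower in the control line and 40.3% in the miR-148a line. Beside these shares stand 17.2% and 23.3% of all tested genes.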
